A study of Mus musculus with 10 samples.

Results

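Complex I of the respiratory chain was examined in cultured mouse hepatocytes through the genes of its nuclear-encoded subunits and assembly factors. Members were all protein-coding genes whose symbol starts with Ndufa, Ndufb, Ndufc, Ndufs or Ndufv, which takes in the acyl carrier protein Ndufab1 and the assembly factors Ndufaf1 to Ndufaf8, and pseudogenes were left out. This gave 46 genes of the 18055 gene IDs listed in any library, and all 46 passed the filter on low counts that left 14097 genes for testing. Of other protein-coding genes with such names, Ndufb1, Ndufb4b and Ndufb4c were listed in no library, and the pseudogene Ndufs5-ps, listed in 2 libraries, was not counted.

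The study asked how Neurotropin (NTP), a pain drug made from the skin of rabbits and free of protein, acts on hepatocytes loaded with free fatty acids (FFAs). Primary hepatocytes, the parenchymal cells of the liver, came from collagenase-perfused livers of C57BL/6 mice and were plated for 4 h in DMEM with 10% FBS. By the study's methods for experiments without siRNA, they then stayed overnight in DMEM without serum before any treatment. RNA was sequenced in 5 groups of 2 libraries each. The Vehicle group received neither NTP nor an FFA, the PA group 200 µM palmitate for 24 h, the LA group 12 µM linoleate for 24 h, and the PA+NTP and LA+NTP groups the same FFA after 1 h of pretreatment with NTP at 0.4 NU/mL. No library here received NTP without an FFA. Nothing in the labels says whether the 2 libraries of a group came from separate mice or cultures, so p-values measure the spread between these libraries, which may be technical. The total of expected counts was 18795990 and 26900384 in Vehicle, 13142588 and 39052570 in PA, 30743849 and 31901493 in PA+NTP, 32312383 and 23696170 in LA, and 35959385 and 60046937 in LA+NTP. PA 1 had the fewest and LA+NTP 2 the most, and the members took between 0.233% and 0.260% of the counts of a library.

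Complex I, or NADH:ubiquinone oxidoreductase, takes electrons from NADH and passes them to ubiquinone while it pumps protons out of the mitochondrial matrix. Its matrix arm carries the flavin and the iron-sulfur clusters, its membrane arm holds the proton channels, and the supernumerary subunits surround a core that is shared with bacteria. Assembly factors help to join the arms and do not stay in the finished enzyme. In hepatocytes the complex reoxidizes NADH made by fatty acid oxidation, among other pathways. The core subunits of the membrane arm are encoded by mitochondrial DNA and were not analysed here.

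The libraries had the markers of hepatocytes. All 8 hepatocyte markers were listed, Alb was the most abundant of them with a mean of 2471 FPKM (fragment counts scaled for transcript length and library size), and their summed FPKM was 3572 and 3361 in Vehicle, 2586 and 2345 in PA, 3216 and 2858 in PA+NTP, 3432 and 3368 in LA, and 4297 and 4049 in LA+NTP. The PA libraries had the lowest sums. Markers of other liver cells were present at low levels, except Spp1. The 6 Kupffer cell and macrophage markers summed to between 4.22 and 8.82 FPKM, with Cd5l the most abundant, the 5 endothelial markers to between 15.6 and 21.9, with Pecam1 the most abundant, and the 5 stellate cell and fibroblast markers to between 14.3 and 17.7, with Dcn the most abundant. The cholangiocyte markers summed to between 398.9 and 691.7 FPKM, nearly all of it from Spp1 with a mean of 596, while Krt7 was under 0.1 FPKM on average. Of the 5 T and B cell markers, Ms4a1 was listed in no library, Cd3e and Cd79a were under 0.1 FPKM on average, Cd3d was the most abundant, and the sums lay between 0.32 and 0.95. By the test used for the members, 6 of 8 hepatocyte markers fell with PA and 2 with LA, while NTP raised 5 of them over PA and 4 over LA. With PA, 4 of 5 stellate cell, 3 of 5 endothelial and 2 of 3 tested cholangiocyte markers fell as well, 1 of 5 tested macrophage markers rose and 1 fell, and neither of the 2 tested T and B cell markers passed. With LA, 1 stellate cell and 1 endothelial marker fell. With PA+NTP against PA, 3 stellate cell, 1 macrophage and 1 cholangiocyte marker rose, and with LA+NTP against LA, 2 endothelial and 1 stellate cell marker rose and 1 T and B cell marker fell. In PA+NTP against Vehicle, 3 hepatocyte and 2 endothelial markers fell and 2 macrophage markers rose, and in LA+NTP against Vehicle 1 hepatocyte marker rose. No other marker of these lists passed in these contrasts. Of all genes tested, 23.5% rose and 22.0% fell with PA, and 20.8% and 20.5% with LA. With NTP, 21.7% rose and 23.0% fell against PA, and 25.9% and 25.6% against LA. In PA+NTP against Vehicle 4.50% rose and 5.61% fell, and in LA+NTP against Vehicle 0.192% rose and 0.0922% fell. In bulk RNA, fewer cells of a type and less RNA per cell cannot be told apart, and the part of these markers in the results below was not tested.

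The members differed widely in level, compared here per length as FPKM. In Vehicle the median over the 46 members was 65.8 FPKM. Ndufa4, first described in complex I and now counted as a subunit of complex IV, had the highest level at 319 ± 11.6 FPKM (SD, n = 2). Its paralog Ndufa4l2 had the lowest, at 0.16 and 0 FPKM, which were 3 and 0 expected counts. The 7 core subunits had a median of 52.3 FPKM, with Ndufs8 the lowest at 26.8. The 9 supernumerary subunits of the matrix arm had a median of 102.7 FPKM and the 19 of the membrane arm 75.04. The 8 assembly factors, with a median of 10.6 FPKM, ran from 3.86 for Ndufaf5 to 27.5 for Ndufaf2, so that only Ndufaf2 exceeded a core subunit, Ndufs8. These 2 had libraries that overlapped, at 29.84 and 25.23 FPKM for Ndufaf2 and 26.32 and 27.34 for Ndufs8. Ndufa11, at 8.56 FPKM, was the only other subunit within the range of the assembly factors. Its level rests on the length of 2661 bases that the deposited tables give it, while its GENCODE exons cover 545 bases.

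**Figure D1:**
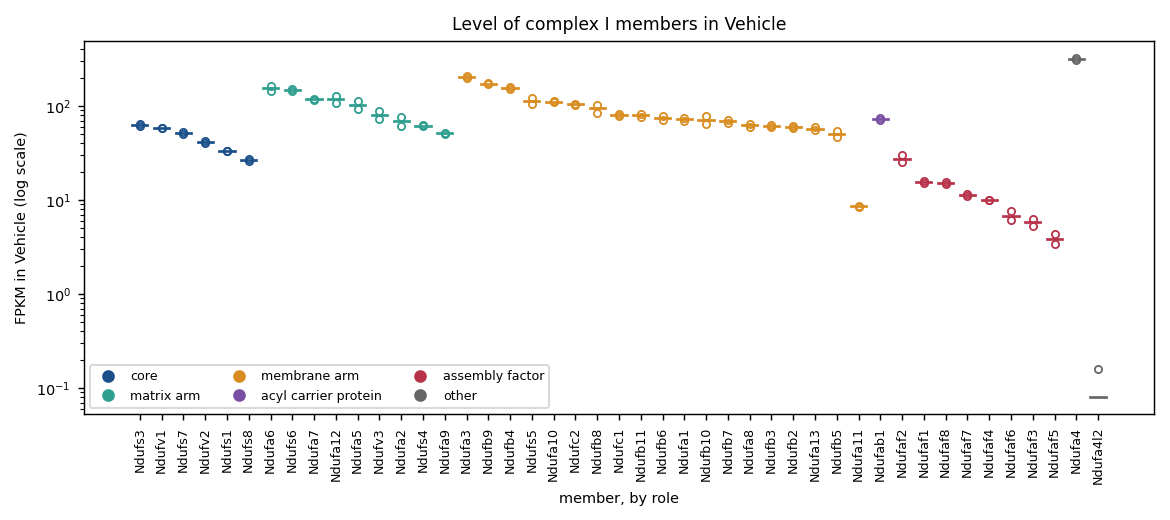
FPKM of 45 of the 46 members in the 2 Vehicle libraries (open circles) and their mean (bar), by role and level, on a log scale. Assembly factors lie between 3.86 and 27.5 FPKM on average and the core subunits drawn at 26.8 or more, and the library of Ndufa4l2 at 0 is not drawn.

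Palmitate was compared with Vehicle to ask which members differed after loading with a saturated FFA. Against Vehicle, 9 of the 46 members rose with PA, where 23.5% of all genes tested rose, and 10 fell, where 22.0% fell. These are 19.6% and 21.7% of the members, near the background. Changes were small, with 2 members past both the test and a fold change of 1.5, which 14.9% of all genes tested passed. The median log2 fold change of the members was -0.01, beside -0.01 over all genes tested. It was -0.06 without PA 1 and 0.07 without PA 2. Without Vehicle 2 the number that rose was 5, where 17.9% of all genes tested rose in that fit, and without Vehicle 1 or without PA 2 the number that fell was 6, where 16.4% and 16.8% fell.

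Linoleate against Vehicle asked the same of an unsaturated FFA and used the same Vehicle libraries. With LA, 9 members rose, where 20.8% of all genes tested did, and 10 fell, where 20.5% did, and 4 members also passed a fold change of 1.5, which 10.6% of all genes tested passed. The median was -0.08, beside -0.01 over all genes, and was -0.13 without Vehicle 2, -0.02 without LA 2 and 0.05 with a trend on transcript length removed, where it was 0.03 over all genes. Leaving out Vehicle 2 left 5 that rose, where 15.1% of all genes rose in that fit, and leaving out Vehicle 1 left 5 that fell, where 14.7% fell. With library-size scaling 7 rose and 12 fell, where 17.4% and 23.6% of all genes did, and with a trend on transcript length removed 5 fell, where 18.4% of all genes tested fell in that fit.

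The effect of NTP was read against the FFA alone, so that these contrasts share the PA or the LA libraries with those above. Against PA, 7 members rose with PA+NTP, where 21.7% of all genes tested rose, and 17 fell, where 23.0% fell. The members that fell were 37.0% of the list, but without PA+NTP 1 the number was 8, with 11 that rose, where 19.4% of all genes tested fell and 18.4% rose in that fit, and without PA 1 it was 9, where 19.5% fell. With both libraries whose deposited tables carry the number 1 left out (PA 1 and PA+NTP 1), an alternative chosen after the values were seen, 5 fell, where 17.4% of all genes did. With those numbers of the tables as a block in the fit, also chosen after the values were seen, 8 rose and 16 fell, where 22.6% and 24.3% of all genes did. A fit of only the PA and PA+NTP libraries called 10 lower, where 19.6% of all genes were, and library-size scaling 8 higher and 11 lower, where 25% and 19.4% were. Against LA, 15 members rose with LA+NTP, where 25.9% of all genes tested did, and 9 fell, where 25.6% did. Without LA+NTP 2, 9 rose, where 20.3% of all genes did. A fold change of 1.5 was passed as well by 5 members in PA+NTP against PA, where 13.9% of all genes tested passed it, and by 9 members in LA+NTP against LA, where 19.3% did. The medians were -0.06 and 0.11, beside 0.01 and 0.01 over all genes. That of PA+NTP against PA was -0.14 without PA 2 and -0.04 without PA+NTP 1, and turned positive without both PA 1 and PA+NTP 1. It was also more negative with a trend on transcript length removed. That of LA+NTP against LA was 0.06 without LA 2 and 0.17 without LA+NTP 1. With a trend on transcript length removed, the counts in LA+NTP against LA were 6 higher and 18 lower, where 23.2% of all genes tested were higher and 28.2% lower in that fit. The median was then -0.03 for the members and -0.04 over all genes.

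**Figure D2:**
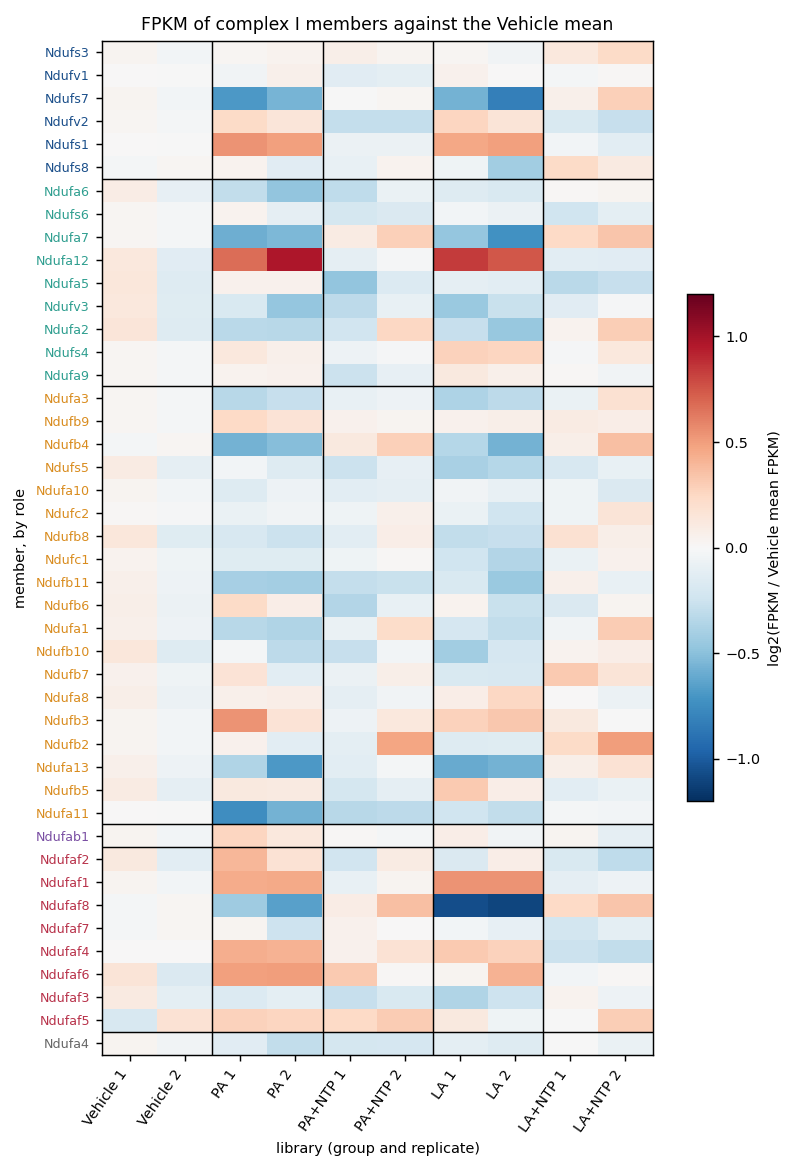
FPKM of 44 of the 46 members in each of the 10 libraries as log2 of the ratio to the Vehicle mean, by role (label colour; from the top core, matrix arm, membrane arm, Ndufab1, assembly factors and Ndufa4). Ndufa12, Ndufs1, Ndufaf1 and Ndufaf4 are high in the PA and LA columns and Ndufs7, Ndufa7, Ndufa13, Ndufb4 and Ndufaf8 low, and Ndufa4l2 is left out because 2 libraries hold none of it.

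Promoters of the members were read from RefSeq on GRCm38.p6, each 300 bases long, to show what members that moved together or apart hold near their start. Of the 46 members, 40 had an entry and 2 of these had more than 1, giving 42 promoters. Ndufs1, Ndufa2, Ndufa4l2, Ndufaf6 and Ndufb9 were among those with none. Searched on both strands, the NRF1 core GCGCATGC was in 5 of the 42 (11.9%) and in 2.71% of all 32851 promoters, the ETS/GABPA core CCGGAAG in 6 (14.3%) and in 8.86%, the YY1 core AAGATGGCG in 6 (14.3%) and in 1.4%, and the ERR core TCAAGGTCA in 0 and in 0.423%. The promoters of 4 members with wide changes are printed with these motifs in capitals, those of Ndufa12 and Ndufaf4, which rose with both FFAs, and of Ndufs7 and Ndufaf8, which fell. Ndufa12 lies at chr10:94198785-94199084, Ndufaf4 at chr4:24897833-24898132, Ndufs7 at chr10:80249199-80249498 and Ndufaf8 at chr11:120098684-120098983, all on the plus strand. The one of Ndufs7 lies wholly inside the gene's annotated span, unlike the other 3, so it does not belong to the first annotated start.
Ndufa12: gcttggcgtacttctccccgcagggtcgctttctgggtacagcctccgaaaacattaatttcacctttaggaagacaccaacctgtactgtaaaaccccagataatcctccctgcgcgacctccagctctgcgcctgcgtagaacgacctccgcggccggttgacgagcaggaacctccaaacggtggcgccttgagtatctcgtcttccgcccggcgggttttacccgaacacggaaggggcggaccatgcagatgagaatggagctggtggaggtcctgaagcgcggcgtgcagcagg
Ndufaf4: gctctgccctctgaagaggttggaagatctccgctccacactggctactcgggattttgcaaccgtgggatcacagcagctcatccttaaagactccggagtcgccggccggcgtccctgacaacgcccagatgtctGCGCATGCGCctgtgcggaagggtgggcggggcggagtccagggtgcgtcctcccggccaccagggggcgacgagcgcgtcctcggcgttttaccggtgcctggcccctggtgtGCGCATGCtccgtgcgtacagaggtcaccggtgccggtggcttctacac
Ndufs7: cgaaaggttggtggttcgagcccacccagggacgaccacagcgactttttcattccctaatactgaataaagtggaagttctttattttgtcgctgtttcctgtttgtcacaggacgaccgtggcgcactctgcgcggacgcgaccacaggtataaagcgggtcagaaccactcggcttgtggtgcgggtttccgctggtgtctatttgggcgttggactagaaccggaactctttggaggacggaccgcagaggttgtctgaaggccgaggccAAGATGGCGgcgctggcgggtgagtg
Ndufaf8: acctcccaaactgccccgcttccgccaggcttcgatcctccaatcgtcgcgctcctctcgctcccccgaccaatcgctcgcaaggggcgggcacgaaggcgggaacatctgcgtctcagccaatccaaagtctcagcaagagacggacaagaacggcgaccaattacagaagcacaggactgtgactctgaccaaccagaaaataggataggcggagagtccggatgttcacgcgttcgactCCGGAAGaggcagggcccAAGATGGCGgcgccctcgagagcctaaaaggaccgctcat
Ndufa12 held none of the 4 motifs, Ndufaf4 the NRF1 core in 2 stretches, in the longer of which matches on both strands overlap, Ndufs7 the YY1 core, and Ndufaf8 the YY1 and ETS/GABPA cores. A match is a run of letters and not a shown binding site. Of the 6 members with the YY1 core, Ndufs7 and Ndufaf8 fell with both FFAs, Ndufc1 fell with LA and Ndufs4 rose with LA. Ndufa9 and Ndufs6 passed no test with either FFA. Of the 5 members with the NRF1 core, Ndufaf4 rose with both FFAs and Ndufa8 rose with LA. Ndufa6 and Ndufa11 fell with PA, and Ndufaf5 passed no test with either FFA. Of the 6 members with the ETS/GABPA core, Ndufaf1 rose and Ndufaf8 fell with both FFAs. Ndufb6, Ndufb7, Ndufs3 and Ndufs8 passed no test with either. Of all genes tested, 23.5% rose and 22.0% fell with PA, and 20.8% and 20.5% with LA. With the GC trend removed, neither fall of Ndufs7 passed (-0.08 and -0.10), nor that of Ndufaf8 with PA (-0.27). Neither rise of Ndufaf4 passed then (0.06 and -0.08), while both rises of Ndufa12 did (0.95 and 0.91).

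Of the 7 core subunits, 2 rose and 1 fell with PA (23.5% and 22.0% of all genes tested) and with LA (20.8% and 20.5% of all genes). NTP raised 1 and lowered 3 relative to PA (21.7% and 23.0% of all genes), and raised 2 and lowered 2 relative to LA (25.9% and 25.6% of all genes). Ndufs1, the largest subunit of the matrix arm and a carrier of iron-sulfur clusters, is NCBI gene 227197 at chr1:63143592-63176822 in GRCm38.p6. It had 33.65 and 33.60 FPKM in Vehicle, 48.74 and 47.22 in PA, 32.09 and 32.09 in PA+NTP, 46.53 and 47.34 in LA, and 32.85 and 30.75 in LA+NTP. The 4 libraries with an FFA alone were all above the other 6. How many of all genes tested separate the libraries in this way, here and for the members below, was not counted. Ndufs1 rose by 44.5% with PA and had the smallest p of the members (log2 fold change 0.53 ± 0.06 SE, adjusted p = 9.46e-06, edgeR quasi-likelihood test with Benjamini-Hochberg adjustment), and by 42.9% with LA (0.52 ± 0.06, adjusted p = 1.65e-05 in the same edgeR test). With NTP it was 0.65 times PA (adjusted p = 2.42e-06, edgeR) and 0.66 times LA (adjusted p = 1.81e-06, edgeR). Removing the GC trend made the log2 fold changes smaller, at 0.35, 0.32, -0.44 and -0.35, past the test in each. For a single gene, an exact permutation test of 2 libraries against 2 cannot go below a two-sided p of 0.333, so that the tests rest on the spread shared across genes.

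Ndufs7, a core subunit that holds the last cluster before ubiquinone, went the other way. It is NCBI gene 75406 at chr10:80249105-80256794. Its FPKM was 53.62 and 50.98 in Vehicle, 32.50 and 35.58 in PA, 52.05 and 53.12 in PA+NTP, 35.37 and 29.58 in LA, and 54.65 and 63.61 in LA+NTP. All 4 libraries with an FFA alone were below the other 6. Its log2 fold change was -0.57 ± 0.10 with PA (adjusted p = 0.000384) and -0.63 ± 0.10 with LA (adjusted p = 0.000186), and 0.56 ± 0.10 with PA+NTP against PA (adjusted p = 0.000414) and 0.82 ± 0.10 with LA+NTP against LA (adjusted p = 8.48e-06), all by edgeR's quasi-likelihood test with Benjamini-Hochberg adjustment. None of these 4 calls held when a trend on GC content was removed, where the log2 fold changes were -0.08, -0.10, 0.04 and 0.13.

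Ndufv2, which carries an iron-sulfur cluster beside the flavin site, had 42.08 and 40.57 FPKM in Vehicle, 48.59 and 45.60 in PA, 33.97 and 33.87 in PA+NTP, 49.44 and 45.87 in LA, and 36.41 and 34.16 in LA+NTP. Both groups with NTP lay below Vehicle as well as below the FFA groups. It rose with PA (0.22 ± 0.07, adjusted p = 0.0205) and LA (0.25 ± 0.07, adjusted p = 0.00945) and fell with NTP against PA (-0.53 ± 0.07, adjusted p = 3.79e-05) and against LA (-0.48 ± 0.07, adjusted p = 4.71e-05) in the edgeR test, but with the GC trend removed the rises became -0.09 and -0.08, and the fall against LA became -0.08, none past the test, and the fall against PA became -0.22 and still passed. The rise with PA did not pass without Vehicle 1 (0.25), Vehicle 2 (0.19) or PA 1 (0.17), nor the rise with LA without Vehicle 2 (0.22) or LA 1 (0.20).

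Ndufv1, Ndufs8 and Ndufs3 passed fewer tests. Ndufv1, the subunit that binds NADH and the flavin, passed only in PA+NTP against PA, with a fall of 12.7% (adjusted p = 0.0167, edgeR). That call was lost without PA 2 (-0.15) or PA+NTP 1 (-0.16). Ndufs8, an iron-sulfur subunit, passed only in LA+NTP against LA, with a rise of 26.0% (adjusted p = 0.0201, edgeR). That call was lost without LA 2 (0.17) or LA+NTP 1 (0.28). Ndufs3 passed no test, with group means between 62.5 and 71.2 FPKM. Their GC content is 53.8% for Ndufs3, 56.7% for Ndufv1 and 57.0% for Ndufs8, and removing the GC trend moved their values. Ndufv1 then passed with PA (0.36), LA (0.41) and NTP against each FFA (-0.53 for PA, -0.51 for LA). Ndufs3 passed with PA (0.27), LA (0.23) and NTP against PA (-0.24), and Ndufs8 only with NTP against PA (-0.35), its change against LA becoming -0.12. Of the 31-base sequences of Ndufs3 transcripts, 49.3% also occur in other genes, most in the pseudogene Gm12251. Its counts may therefore hold reads of other genes, and how many was not tested. Such sharing exceeded 10% in 13 of the 46 members, Ndufa11 (20.4%) and Ndufb11 (19.1%) among them.

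Among the 9 supernumerary subunits of the matrix arm, 1 rose and 2 fell with PA, where 23.5% of all genes tested rose and 22.0% fell, and 2 rose and 2 fell with LA, where 20.8% rose and 20.5% fell. NTP raised 1 and lowered 5 relative to PA, where 21.7% of all genes tested rose and 23.0% fell, and raised 2 and lowered 2 relative to LA, where 25.9% rose and 25.6% fell. Ndufa12, which is paralogous to the assembly factor Ndufaf2 and takes its place late in assembly, is NCBI gene 66414 at chr10:94199035-94221440. It had 128.20 and 107.28 FPKM in Vehicle, 187.95 and 231.22 in PA, 109.46 and 116.69 in PA+NTP, 209.98 and 196.87 in LA, and 108.01 and 107.10 in LA+NTP. The FFA libraries did not overlap the other 6, whose highest value was 128.20. Ndufa12 rose by 83.8% with PA (adjusted p = 9.58e-06, edgeR) and by 78.9% with LA (adjusted p = 1.86e-05, edgeR), and with NTP it was 0.52 times PA (adjusted p = 4.32e-06, edgeR) and 0.51 times LA (adjusted p = 2.04e-06, edgeR). With the GC trend removed its log2 fold changes were 0.95, 0.91, -1.03 and -1.04, past the test in each. It shares 29.3% of its 31-base sequences with other genes, most with the pseudogene Gm15920.

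Ndufa7 had 119.88 and 115.65 FPKM in Vehicle, 78.62 and 80.92 in PA, 126.44 and 143.95 in PA+NTP, 85.45 and 71.34 in LA, and 138.62 and 148.72 in LA+NTP. It was lowest in the FFA groups, without overlap. It fell with PA (-0.53 ± 0.10, adjusted p = 0.000484) and LA (-0.54 ± 0.09, adjusted p = 0.000437) and rose with NTP by 62.7% against PA (adjusted p = 4e-05) and by 77.8% against LA (adjusted p = 4.76e-06) in the edgeR test. All 4 changes were smaller with the GC trend removed, at -0.27, -0.27, 0.44 and 0.49, and the fall with LA did not pass. Ndufs4, a subunit near the NADH site whose loss is a cause of Leigh syndrome, rose with LA (0.31, adjusted p = 0.00177, edgeR) and fell with NTP against PA (-0.19, adjusted p = 0.0342, edgeR) and against LA (-0.25, adjusted p = 0.00518, edgeR). Ndufs6, Ndufa5 and Ndufa9 passed only in PA+NTP against PA, as lower. In LA+NTP against LA they were at -0.17, -0.23 and -0.15, not past the test. Ndufa6 passed only with PA and Ndufv3 only with LA, both as lower. Ndufa6 was at -0.12 with LA and Ndufv3 at -0.28 with PA. Ndufa2 passed only in LA+NTP against LA, as higher, and was at 0.30 in PA+NTP against PA. Passing in 1 contrast alone does not show that the contrasts differ.

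**Figure D3:**
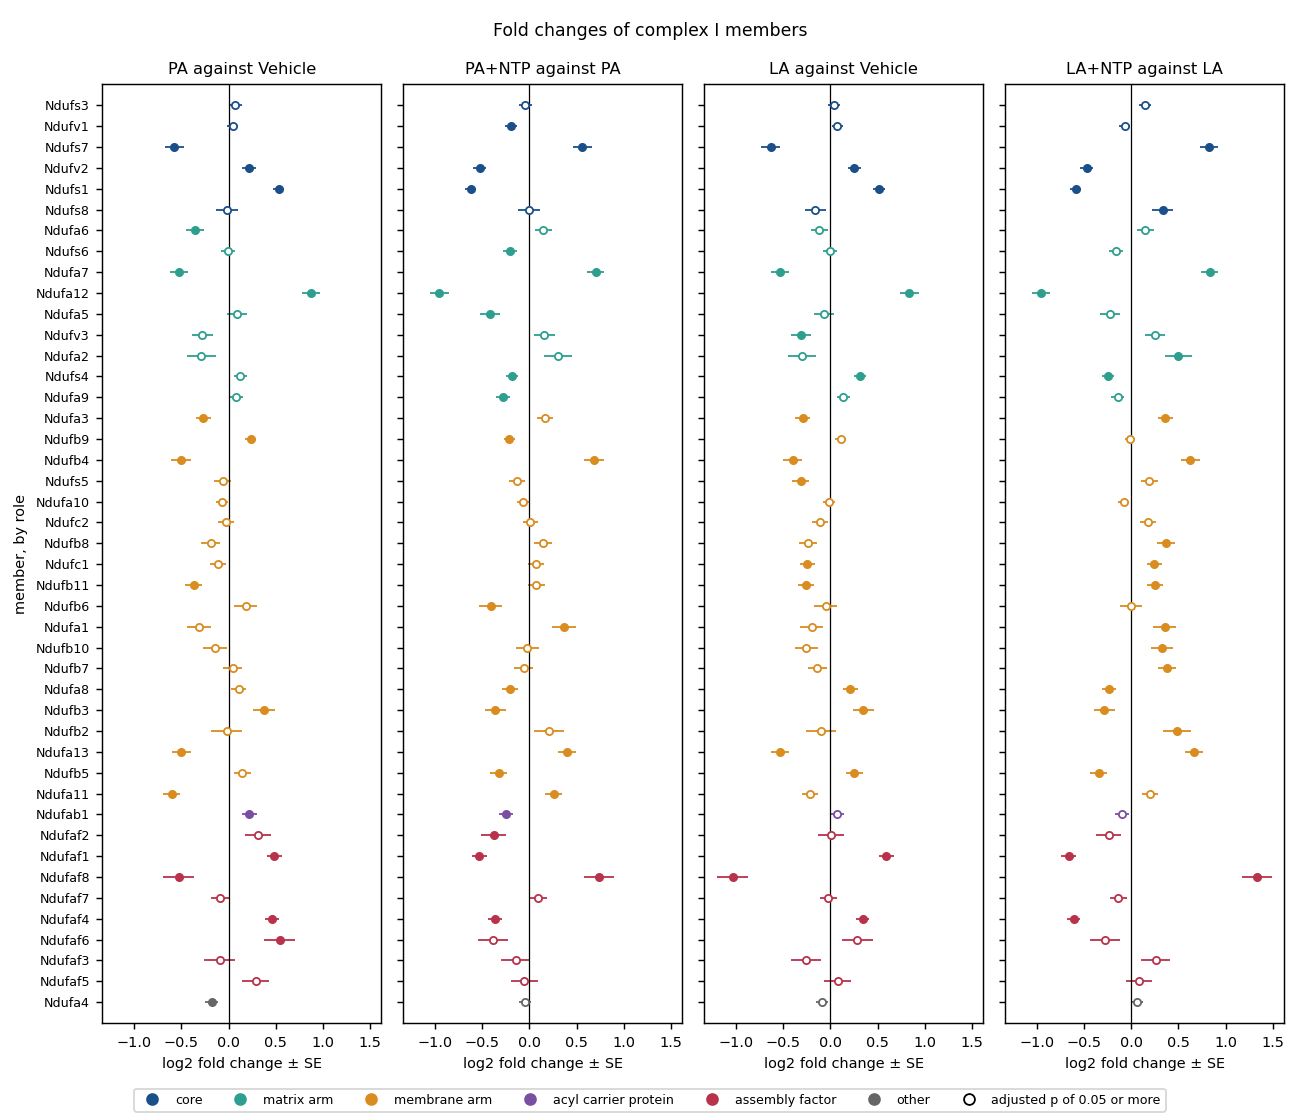
Log2 fold change with standard error of 44 of the 46 members in 4 contrasts, by role, with filled points for an adjusted p under 0.05 in edgeR's quasi-likelihood test. Ndufa12 reaches 0.88 with PA and -0.96 with PA+NTP against PA, and Ndufaf8 reaches -1.04 with LA and 1.33 with LA+NTP against LA, while Ndufa4l2 is left out for its few counts.

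The 19 supernumerary subunits of the membrane arm held 2 that rose and 5 that fell with PA (23.5% and 22.0% of all genes tested) and 3 that rose and 6 that fell with LA (20.8% and 20.5% of all genes). NTP raised 4 and lowered 5 relative to PA (21.7% and 23.0% of all genes), and raised 10 and lowered 3 relative to LA (25.9% and 25.6% of all genes). Ndufb4 had 153.68 and 159.68 FPKM in Vehicle, 105.72 and 109.89 in PA, 169.71 and 191.39 in PA+NTP, 123.78 and 105.80 in LA, and 164.00 and 200.69 in LA+NTP. The FFA groups lay below the rest without overlap. Ndufb4 fell by 29.5% with PA (adjusted p = 0.00134, edgeR) and by 24.3% with LA (adjusted p = 0.00639, edgeR), and NTP raised it by 60.7% over PA (adjusted p = 0.000111, edgeR) and by 54.4% over LA (adjusted p = 0.000127, edgeR). The fall with LA did not pass without Vehicle 2 (-0.38) or LA 2 (-0.29), nor with the GC trend removed (-0.27), where the other changes were -0.37 with PA and 0.55 and 0.47 with NTP relative to PA and LA, past the test. Ndufb4 shares 38.3% of its 31-base sequences with other genes, most with Ndufb4c.

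Ndufa13, also known as GRIM-19, had 60.00 and 55.23 FPKM in Vehicle, 44.77 and 35.80 in PA, 52.67 and 56.74 in PA+NTP, 38.00 and 38.89 in LA, and 60.51 and 64.99 in LA+NTP. It was again lowest in the FFA groups, and its fold changes of -0.50, -0.54, 0.40 and 0.67 on the log2 scale all passed the edgeR test (adjusted p = 0.000778, 0.000482, 0.00341 and 3.85e-05). With the GC trend removed they were -0.01, -0.01, -0.11 and -0.01, and none passed, and the rise over PA was also lost without PA 2 (0.22). Exons of Tssk6 on the opposite strand cover 30% of the exon bases of Ndufa13. No source used here says whether the counting used strand, so reads of the 2 genes in that part may not have been told apart.

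Ndufa11 had 8.61 and 8.51 FPKM in Vehicle, 5.09 and 5.79 in PA, 6.80 and 6.89 in PA+NTP, 7.25 and 6.99 in LA, and 8.41 and 8.36 in LA+NTP. PA was below all other groups, a fall of 34.2% against Vehicle (adjusted p = 0.000102, edgeR), and PA+NTP lay between PA and Vehicle. With the GC trend removed the fall was -0.22 on the log2 scale and did not pass. The rise over PA with NTP (0.26 ± 0.09, adjusted p = 0.0308, edgeR) became -0.15 and was also lost without PA 1 (0.18), PA+NTP 2 (0.22), LA+NTP 1 (0.26) or LA+NTP 2 (0.25). Ndufb11 fell with PA by 22.6% (adjusted p = 0.00379, edgeR) and with LA by 16.5% (adjusted p = 0.0288, edgeR), and rose with LA+NTP against LA by 19.0% (adjusted p = 0.0247, edgeR). All 3 calls were lost with the GC trend removed (-0.22, -0.12 and 0.07), the fall with LA also without Vehicle 1 (-0.20) or LA 2 (-0.13), and the rise without LA 2 (0.12) or LA+NTP 1 (0.18). Other membrane arm subunits went the other way. Ndufb3 rose with PA (0.38, adjusted p = 0.0151, edgeR) and LA (0.35, adjusted p = 0.0234, edgeR). It fell with NTP against PA (-0.36, adjusted p = 0.0165, edgeR) and LA (-0.29, adjusted p = 0.0389, edgeR). Ndufb5 and Ndufa8 rose with LA and fell with NTP against both FFAs, and Ndufb9 rose with PA and fell with NTP against PA. Values with the GC trend removed were not taken for these members. Ndufa10 and Ndufc2 passed no test. Ndufab1, the mitochondrial acyl carrier protein present in both arms, rose with PA (0.22, adjusted p = 0.0311, edgeR) and fell with PA+NTP against PA (-0.25, adjusted p = 0.0157, edgeR).

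Of the 8 assembly factors with an Nduf name, 3 rose and 1 fell with PA (23.5% and 22.0% of all genes tested) and 2 rose and 1 fell with LA (20.8% and 20.5% of all genes). NTP raised 1 and lowered 3 relative to PA (21.7% and 23.0% of all genes) and raised 1 and lowered 2 relative to LA (25.9% and 25.6% of all genes). Ndufaf1, which takes part in building the membrane arm, had 16.02 and 15.25 FPKM in Vehicle, 21.33 and 21.42 in PA, 14.74 and 15.98 in PA+NTP, 22.79 and 22.79 in LA, and 14.53 and 14.97 in LA+NTP. All FFA libraries were above 21, and the other 6 did not reach 17. It rose with PA by 40.1% (adjusted p = 0.000268, edgeR) and with LA by 50.7% (adjusted p = 6.01e-05, edgeR), and was 0.69 times PA (adjusted p = 0.000106, edgeR) and 0.63 times LA with NTP (adjusted p = 7.45e-06, edgeR). The log2 fold changes with the GC trend removed were 0.35, 0.44, -0.39 and -0.48, past the test in each. Ndufaf4 had 9.97 and 9.97 FPKM in Vehicle, 13.48 and 13.32 in PA, 10.32 and 11.28 in PA+NTP, 12.38 and 12.08 in LA, and 8.33 and 8.10 in LA+NTP. The FFA libraries were again above the other 6, with log2 fold changes of 0.46, 0.34, -0.37 and -0.62 (adjusted p = 0.000194, 0.002, 0.000923 and 7.72e-06, edgeR), which became 0.06, -0.08, 0.03 and -0.11 with the GC trend removed, none past the test.

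Ndufaf8 is NCBI gene 208501 at chr11:120098934-120100424. It had the widest change among the members past the test, with 14.95 and 15.39 FPKM in Vehicle, 11.26 and 9.66 in PA, 16.12 and 19.50 in PA+NTP, 7.24 and 7.06 in LA, and 17.89 and 19.14 in LA+NTP. LA was lowest and both NTP groups were above Vehicle in FPKM, although neither passed the test against Vehicle. The fall with LA was 51.3% (-1.04 ± 0.17, adjusted p = 0.000209, edgeR), and LA+NTP was 2.52 times LA (1.33 ± 0.16, adjusted p = 9.08e-06, edgeR). With PA it fell by 30.7% (adjusted p = 0.0168, edgeR) and PA+NTP was 1.67 times PA (adjusted p = 0.00174, edgeR). With the GC trend removed the changes were -0.77 and 0.98 for the LA contrasts, past the test, and -0.27 for PA, not past it, and 0.47 for PA+NTP against PA, past it. The fall with PA was also lost without Vehicle 1 (-0.55), Vehicle 2 (-0.51) or PA 2 (-0.39). Ndufaf8 was read at low depth, between 69 and 536 expected counts a library.

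Ndufaf6 rose with PA (0.54 ± 0.17, adjusted p = 0.0155, edgeR), a call lost without Vehicle 2 (0.38) or PA 2 (0.55) and with the table numbers as a block (0.46). Its change with NTP against PA (-0.39) passed only without PA+NTP 1 (-0.53), LA 1 (-0.40) or LA 2 (-0.40). Ndufaf2 fell with PA+NTP against PA (-0.38 ± 0.14, adjusted p = 0.033, edgeR), which did not pass without PA 1 (-0.28) or PA+NTP 1 (-0.20) or with the GC trend removed (-0.30), and its change with PA passed without PA+NTP 1 or PA+NTP 2 (0.31 each). Ndufaf3, Ndufaf5 and Ndufaf7 passed no test, except Ndufaf5 with PA when Vehicle 2 was left out (0.49).

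**Figure D4:**
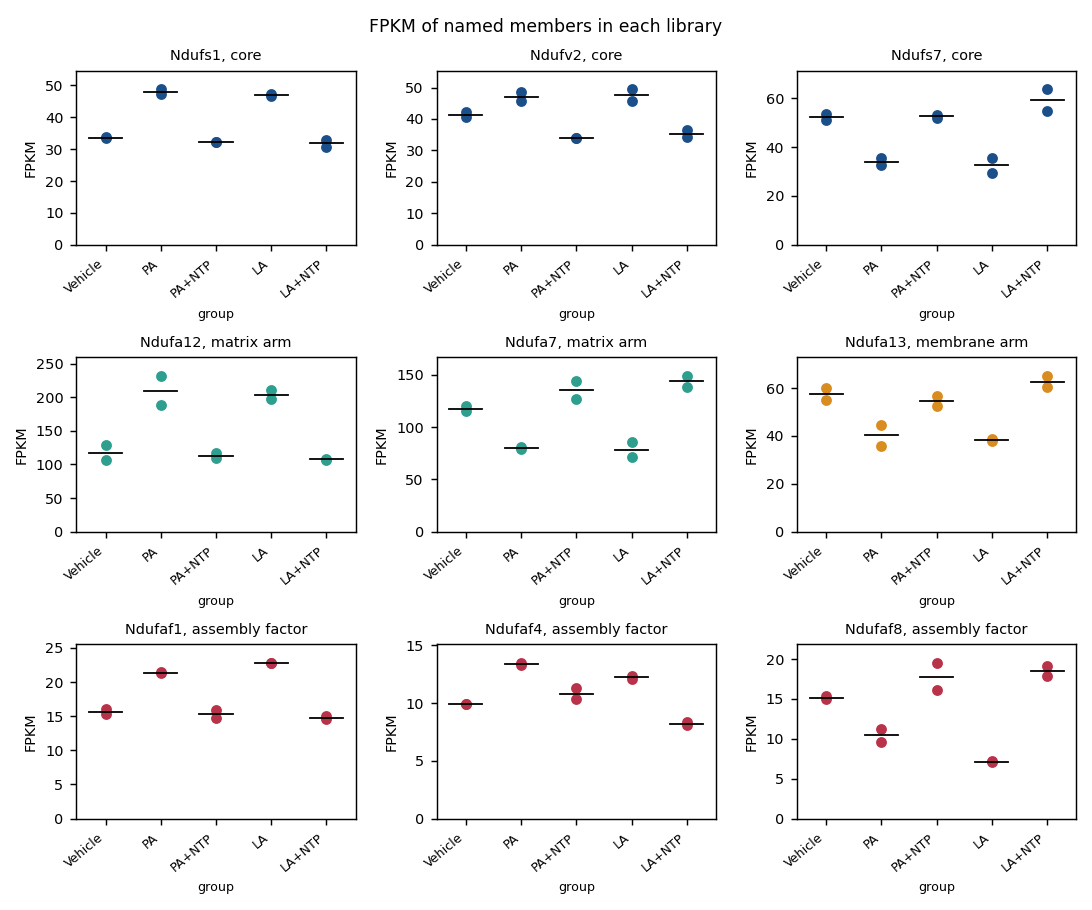
FPKM of 9 members in each library (points) with the group mean (bar). Ndufs1, Ndufv2, Ndufa12, Ndufaf1 and Ndufaf4 are higher, and Ndufs7, Ndufa7, Ndufa13 and Ndufaf8 lower, in all 4 libraries with PA or LA alone than in the other 6. How many of all genes tested separate in this way was not counted.

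Ndufa4 fell by 11.8% with PA (adjusted p = 0.0384, edgeR) and passed no test with LA or with NTP against either FFA. The fall was lost without Vehicle 1 (-0.14), Vehicle 2 (-0.22) or PA 2 (-0.09), and with the table numbers as a block (-0.18). With the GC trend removed it was -0.40, and the changes with LA (-0.34) and with LA+NTP against LA (0.35) passed as well. Ndufa4l2 passed no test in the main fit. Its expected counts were 3 and 0 in Vehicle, 40 and 3 in PA, 199 and 12 in PA+NTP, 3 and 0 in LA, and 8 and 8 in LA+NTP. The libraries with most, PA 1 and PA+NTP 1, were far above their own replicates, and they are the only libraries whose deposited tables carry the number 1. No library outside PA and PA+NTP had more than 8 counts. In PA+NTP against Vehicle its adjusted p was 0.0521 (edgeR), and it passed there with library-size scaling, with no filter, in the fit of only those groups, with a replicate block and with the length trend removed. It also passed with PA with no filter or a replicate block, and in PA+NTP against PA with no filter or with the table numbers as a block, and in some fits that leave out 1 library of PA or PA+NTP. No fold change is given and none of these calls is taken as a result, since they rest on PA 1 and PA+NTP 1 and on counts near 0.

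The groups with NTP were also set against Vehicle. In PA+NTP against Vehicle no member rose, where 4.50% of all genes tested rose, and 4 fell, where 5.61% fell. These were Ndufv2 (-0.31 ± 0.07, adjusted p = 0.0123, edgeR), Ndufa11 (-0.35 ± 0.09, adjusted p = 0.0201, edgeR), Ndufa4 (-0.23 ± 0.07, adjusted p = 0.0384, edgeR) and Ndufb11 (-0.30 ± 0.09, adjusted p = 0.0448, edgeR). The calls of all 4 were lost without Vehicle 1 or Vehicle 2 (-0.28 and -0.34 for Ndufv2, -0.34 and -0.36 for Ndufa11, -0.19 and -0.27 for Ndufa4, -0.23 and -0.36 for Ndufb11). Without PA+NTP 1, Ndufa11 (-0.31), Ndufa4 (-0.21) and Ndufb11 (-0.26) did not pass, nor did Ndufa4 without PA+NTP 2 (-0.26) or LA+NTP 1 (-0.23) or with the GC trend removed (-0.22), nor Ndufb11 without PA 1 (-0.30), PA 2 (-0.30) or PA+NTP 2 (-0.33). Without Vehicle 1 the number that fell was 0, where 2.01% of all genes fell in that fit. It was 1 without Vehicle 2, without PA+NTP 1, without both PA 1 and PA+NTP 1, and with the table numbers as a block, where 2.25%, 5.46%, 6.26% and 5.61% fell. With that block Ndufa11 (-0.28), Ndufa4 (-0.23) and Ndufb11 (-0.20) did not pass. Library-size scaling gave 1 higher, Ndufa4l2, and 2 lower, where 5.84% and 4.77% of all genes were. For the 0 that rose, DESeq2 and limma also gave 0, 12 members had an unadjusted p under 0.05 in either direction, and leaving out PA 1, PA 2, PA+NTP 1 or PA+NTP 2 gave 1, where 4.20%, 4.16%, 5.54% and 3.45% of all genes rose. None passed a fold change of 1.5, which 2.85% of all genes tested did. In LA+NTP against Vehicle no member rose or fell in edgeR's quasi-likelihood test, where 0.192% of all genes tested rose, 0.0922% fell and 0.0922% passed the fold as well. There 9 members had an unadjusted p under 0.05, and DESeq2 and limma also called 0. A fit of only those groups gave 2 higher and 1 lower, where 2.81% and 2.36% of all genes were in that fit, and no filter on low counts gave the same numbers, where 1.75% and 1.18% were. Leaving out PA+NTP 1 or PA+NTP 2 gave 1 lower, Ndufaf4 (-0.28), where 0.947% and 0.921% of all genes were lower. A p that misses the threshold does not show that the levels were the same.

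Whether NTP acted to a different degree under each FFA was tested directly as an interaction. It was past the edgeR test in 0 members and in 0% of all genes tested, with 6 members at an unadjusted p under 0.05, and DESeq2 and limma called 0 members. The median difference was -0.14 over the members (quartiles -0.20 and -0.01) and -0.004 over all genes tested. The smallest p was that of Ndufb7 (-0.44 ± 0.14, adjusted p = 0.629, edgeR), and Ndufaf8 differed by -0.60 ± 0.23 (adjusted p = 0.640, edgeR).

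Fold changes were set beside transcript GC content, which ran from 39.5% for Ndufaf4 to 60.7% for Ndufs7 among the members, with a median of 52.2% beside 50.1% over all genes tested. Across the 46 members, which are not independent replicates, Spearman's rho between GC content and log2 fold change was -0.47 with PA and -0.62 with LA, and for the NTP contrasts 0.54 relative to PA and 0.67 relative to LA. Over all genes tested it was, in that order, -0.52, -0.64, 0.58 and 0.68. Both within the list and over all genes, the members and genes of low GC content were higher and those of high GC content lower in the FFA groups. Of the 16 members of lowest GC content (39.5% to 48.8%), 6 rose and 1 fell with PA, 7 rose and 0 fell with LA, 1 rose and 11 fell with PA+NTP against PA, and 1 rose and 7 fell with LA+NTP against LA. Of all genes tested in that range, 41.8% rose with PA and 41.3% with LA, and 42.9% and 49.9% fell with NTP relative to PA and LA. In the other direction, 7.02% fell with PA and 3.4% with LA, and 5.17% and 4.17% rose with NTP relative to PA and LA. Of the 15 of highest GC content (55.3% to 60.7%), 1 rose and 5 fell with PA, 0 rose and 5 fell with LA, 5 rose and 3 fell with PA+NTP against PA, and 8 rose and 0 fell with LA+NTP against LA. Of all genes tested in that range, 45.4% fell with PA and 50.5% with LA, and 48.8% and 61.3% rose with NTP relative to PA and LA. In the other direction, 3.58% rose with PA and 0.803% with LA, and 1.24% fell with LA+NTP against LA. The 3 that fell with PA+NTP against PA went against the slope, where 2.37% of all genes of that range fell.

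Removing a smooth trend on GC content from each library left 11 members higher and 4 lower with PA, where 18.1% of all genes tested were higher and 13.1% lower in that fit, and 10 higher and 2 lower with LA, where 9.78% and 7.62% were. Relative to PA, NTP left 4 higher and 18 lower, where 10.9% and 15.9% of all genes were, and relative to LA 6 higher and 11 lower, where 11.4% and 16.3% were. Fewer members fell with FFAs or rose with NTP than in the main fit, and the same holds for all genes. The members that rose with FFAs or fell with NTP did not become fewer, while among all genes those became fewer as well. The medians became 0.08, 0.02, -0.16 and -0.05, beside 0.029, 0.025, -0.030 and -0.031 over all genes. A trend shared by most genes is removed by this step whatever its origin, so the 2 sets of values are given side by side. Ndufs1, Ndufa12 and Ndufaf1 passed all 4 tests both ways.

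**Figure D5:**
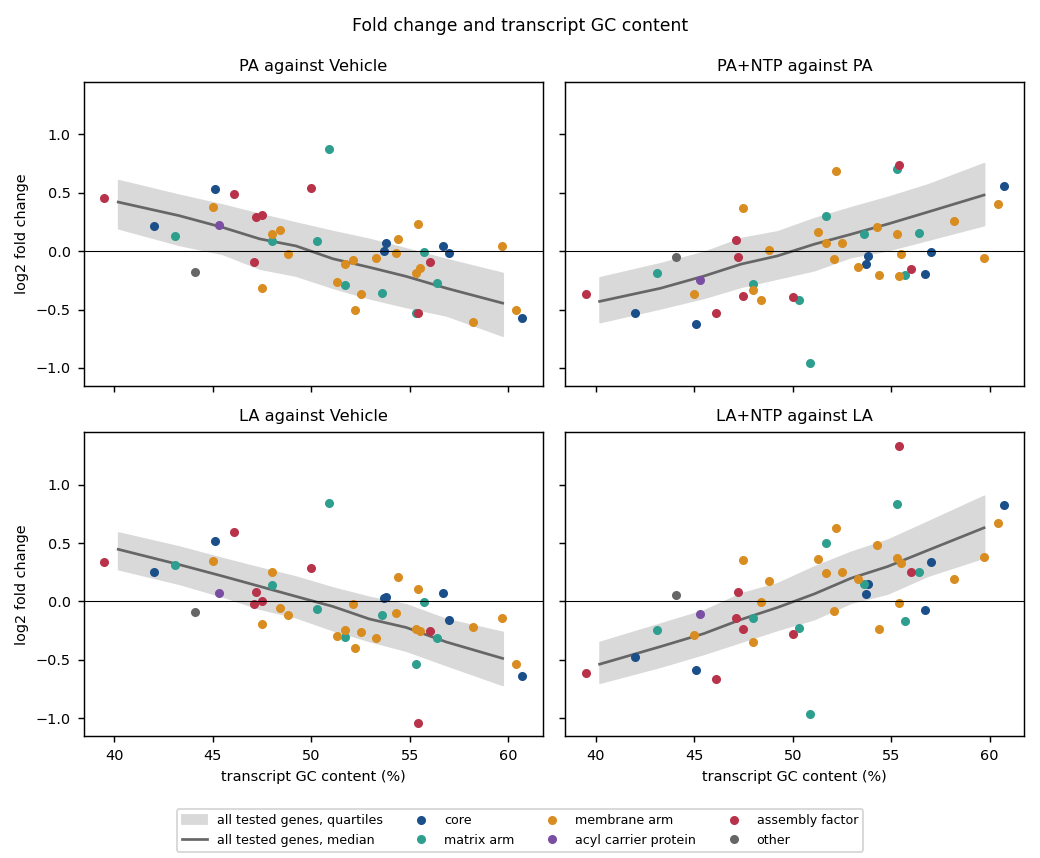
Log2 fold change of 45 members (points, by role) against transcript GC content in 4 contrasts, with the median (line) and quartiles (band) of all genes tested in bins of GC content. Members follow the slope of all genes, with rho of -0.62 for LA and 0.67 for LA+NTP against LA over 46 members. Ndufa12 lies far off the line in each contrast, and Ndufaf8 in those with LA.

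Other genes of the pathway were followed in the same fit. Of 10 complex I assembly factors without an Nduf name, 9 were tested. With PA 3 rose and 1 fell, as with LA, and NTP raised 1 and lowered 3 relative to PA and raised 1 and lowered 4 relative to LA, beside 23.5% of all genes that rose and 22.0% that fell with PA, 20.8% and 20.5% with LA, 21.7% and 23.0% with NTP relative to PA, and 25.9% and 25.6% relative to LA. Tmem70, which helps to assemble complex I and ATP synthase, rose with PA (0.67 ± 0.07, adjusted p = 5.84e-06, edgeR) and LA (0.65 ± 0.07, adjusted p = 1.07e-05, edgeR). It fell with NTP against PA (-0.46 ± 0.07, adjusted p = 9.88e-05, edgeR) and against LA (-0.63 ± 0.07, adjusted p = 3.61e-06, edgeR). Nubpl, which delivers iron-sulfur clusters to complex I, rose with PA (0.43 ± 0.11, adjusted p = 0.00468, edgeR) and LA (0.53 ± 0.11, adjusted p = 0.0011, edgeR). It fell with NTP against PA (-0.82 ± 0.11, adjusted p = 3.31e-05, edgeR) and against LA (-0.75 ± 0.10, adjusted p = 3.15e-05, edgeR). Ecsit fell with PA (-0.35 ± 0.09, adjusted p = 0.00434, edgeR) and LA (-0.43 ± 0.08, adjusted p = 0.00109, edgeR). It rose with NTP against PA (0.40 ± 0.08, adjusted p = 0.00132, edgeR) and against LA (0.39 ± 0.08, adjusted p = 0.00107, edgeR).

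Other complexes were set beside complex I. With LA the median log2 fold change was 0.13 over 8 genes of complex II, -0.23 over 9 of complex III, -0.31 over 12 tested of complex IV and -0.22 over 17 of ATP synthase, beside -0.08 over the members of complex I. With LA+NTP against LA the medians were -0.03, 0.34, 0.31 and 0.22, beside 0.11. With PA they were 0.05, -0.19, -0.29 and -0.14, beside -0.01, and NTP relative to PA gave -0.08, 0.17, 0.16 and 0.15, beside -0.06. These medians depended on the setting. After removal of the GC trend, those of complex II, III, IV and ATP synthase were 0.03, 0.05, -0.27 and -0.03 with LA, beside 0.02 for the members, and -0.09, -0.07, 0.07 and -0.05 with NTP relative to PA, beside -0.16. Complex IV in PA+NTP against PA was -0.17 without PA+NTP 2 and 0.16 without PA+NTP 1, so the complexes are not ranked. In complex III 3 genes rose and 5 fell with PA and with LA, in complex IV 2 and 6 with each, in ATP synthase 1 and 8 with PA and 2 and 9 with LA, and in complex II 1 and 1 with PA and 2 and 1 with LA, beside 23.5% and 22.0% of all genes with PA and 20.8% and 20.5% with LA. Uqcr10 of complex III fell with LA (-1.01 ± 0.11, adjusted p = 1.35e-05, edgeR) and rose with LA+NTP against LA (1.28 ± 0.11, adjusted p = 6.68e-07, edgeR), and Cox7c of complex IV did so as well (-0.98 ± 0.10, adjusted p = 5.83e-06, and 1.36 ± 0.10, adjusted p = 1.66e-07, edgeR). Both changes were close to those of Ndufaf8 in these LA contrasts, at -1.04 and 1.33. In the PA contrasts Uqcr10 was at -1.04 with PA and 1.08 with PA+NTP against PA, and Ndufaf8 at -0.53 and 0.74.

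Of 8 regulators of mitochondrial genes, 3 rose and 3 fell with each FFA (23.5% and 22.0% of all genes with PA, 20.8% and 20.5% with LA), and NTP raised 3 and lowered 3 relative to PA (21.7% and 23.0% of all genes) and raised 4 and lowered 4 relative to LA (25.9% and 25.6%). Esrra, a nuclear receptor that acts on respiratory genes, fell with LA (-0.71 ± 0.10, adjusted p = 8.84e-05, edgeR) and rose with LA+NTP against LA (0.80 ± 0.10, adjusted p = 1.15e-05, edgeR). Tfam, which packages mitochondrial DNA, and Gabpa, an ETS factor, moved opposite to it, at 0.48 ± 0.08 (adjusted p = 0.000235, edgeR) and 0.50 ± 0.07 (adjusted p = 4.75e-05, edgeR) with LA. Values with the GC trend removed were not taken for these regulators. They were also not taken for the single genes named above from other complexes and other assembly factors.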

How the data were processed

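Gene expression was measured by RNA sequencing in 10 libraries of 5 groups, named as in the sample labels. HISAT, Bowtie2 and RSEM were the authors' tools and mm10 their build, per the submitters' processing notes, with versions not given in the sources used here. The deposited expected counts are RSEM estimates per gene, not normalized, and the deposited FPKM values were scaled by the authors for transcript length and library size. The deposited tables also give that length in bases, and list genes of at least 0.01 FPKM, so that an unlisted gene counted as 0. The NTP dose is from a figure legend of the study, since the labels give none. Replicate numbers follow the labels, not the numbers that the deposited tables carry, which are 1 and 3 in PA and PA+NTP and 2 and 3 in the other groups. Whether a table number marks a shared hepatocyte preparation is not given in the sources used here.

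Of 18055 gene IDs, 17998 were matched by ID to RefSeq on GRCm38.p6 and 11 by accession. Expected counts were rounded and tested in R 4.3.3 with edgeR 4.0.16 (filterByExpr, TMM factors 0.977 to 1.037, quasi-likelihood F test, 5 groups in 1 fit, Benjamini-Hochberg over 14097 genes, adjusted p under 0.05). Standard errors were taken from the log2 fold change and its F. Depth was 13142588 to 60046937 expected counts. Alternatives tried were library-size scaling, DESeq2 1.42.0, all genes without the filter, a fold change of 1.5, limma 3.58.1 on log2(FPKM + 1), fits of only the groups compared, a replicate block, a block on table numbers, removal of a length or GC trend (loess, span 0.4; GC content from GENCODE M21 transcripts), and leaving out libraries. Shared sequence is the share of 31-base sequences found in GENCODE M21 transcripts of other genes. The pipeline was tested on simulated data. Replicate tables differed by more than sampling noise in all 5 groups.

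Named with values were the core subunits except 1 that is not reported here, the assembly factors, Ndufa4 and Ndufa4l2, in each contrast the 4 members of smallest p among those past the test, each member past the test with a fold change of 1.5, and the members of highest and lowest Vehicle FPKM; other genes that are named were chosen after their values were seen. Members and lists were chosen with earlier results of these data known.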

Additional observations from a re-analysis of the deposited data

How the results depend on the processing

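Of 54 calls of named members, DESeq2 kept 53, library-size scaling 50, no filter on low counts 53, limma on log2(FPKM + 1) 50, fits of only the groups compared 49, removal of the length trend 50 and removal of the GC trend 28. Removing the GC trend turned 8 of the calls, and no other setting turned any. It gave -0.149 for Ndufa11 in PA+NTP against PA, -0.111 and -0.008 for Ndufa13 in PA+NTP against PA and LA+NTP against LA, -0.082 and 0.028 for Ndufaf4 in LA against Vehicle and PA+NTP against PA, -0.122 for Ndufs8 in LA+NTP against LA, and -0.089 and -0.081 for Ndufv2 in PA and LA against Vehicle. It also turned a value that had not passed and did so then, Ndufa11 (-0.34) in LA+NTP against LA. With the GC trend removed, 4 members were lower in PA (median 0.0811) and 2 in LA (0.0215) against Vehicle, and 4 higher in PA+NTP against PA (-0.1647) and 6 in LA+NTP against LA (-0.0462), where 13.1%, 7.62%, 10.9% and 11.4% of all genes tested were in that fit. With the length trend removed, 5 were lower in LA against Vehicle (median 0.0484), the median was -0.1411 in PA+NTP against PA, 6 were higher and 18 lower in LA+NTP against LA (-0.0298), and 1 was higher in PA+NTP against Vehicle. The cause was not tested. A fold change of 1.5 as well, a stricter rule by construction, left 1 higher and 1 lower for PA, 2 and 2 for LA, 3 and 2 for PA+NTP against PA, 5 and 4 for LA+NTP against LA, and 0 lower for PA+NTP against Vehicle. In PA+NTP against PA, 11 were lower with library-size scaling and 10 in the fit of only those groups. In PA+NTP against Vehicle, 1 (Ndufa4l2, of few counts) was higher with library-size scaling, with no filter and in the fit of only those groups, and 2 were lower with library-size scaling, limma and the fit of only those groups. In LA+NTP against Vehicle, 2 were higher and 1 lower with no filter and in the fit of only those groups. Leaving out PA 1 and PA+NTP 1, chosen after seeing the data, gave a median of 0.0221 in PA+NTP against PA. It also changed the calls of PA+NTP and LA+NTP against Vehicle.

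A block on the numbers of the deposited tables, added after seeing the data, kept 49 of the 54 calls and turned none, and gave 1 member lower in PA+NTP against Vehicle. The replicate numbers of the labels were used as a replicate block, which lost 0 of the 54 calls and gave 1 member higher in PA+NTP against Vehicle. Over pairs of groups, deviations of same-numbered libraries correlated at -0.069 to 0.127 across genes, and with only 2 numbers they were not taken as pairs. Leaving out each library in turn gave, for PA against Vehicle, 5 to 11 higher, 6 to 13 lower and medians of -0.0585 to 0.0659. For LA against Vehicle it gave 5 to 9, 5 to 12 and -0.1321 to -0.0165, for PA+NTP against PA 5 to 11, 8 to 18 and -0.1376 to -0.0371, and for LA+NTP against LA 9 to 15, 7 to 12 and 0.0616 to 0.1683. For PA+NTP against Vehicle it gave 0 to 1, 0 to 5 and -0.1475 to -0.0081, for LA+NTP against Vehicle 0 to 0, 0 to 1 and -0.0459 to 0.0723, and for the interaction 0. The lone library of a group was then assumed to vary like the other groups. The share of all genes past the test also differed between these fits. The ranges of counts are therefore not read as changes of the members alone. The median Vehicle level was 61.575 to 68.195 FPKM. Depth limits Ndufa4l2 and the assembly factors of few counts most, and 2 libraries a group limit every test.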
